A study of Danio rerio with 4 samples.

Results

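In RNA of whole zebrafish larvae, 191 of 57775 listed transcripts were at 0 in wild-type siblings and reached set minimums in znf574 mutants. They are called mutant-only transcripts below. They were chosen by their estimated counts: after rounding, 0 in both wild-type libraries, at least 10 in both mutant libraries and a mean of at least 100 over the mutant libraries. Because these counts set the difference between genotypes, that difference is described and not used as evidence. The mutant libraries came from znf574-/- larvae. The wild-type libraries came from siblings that were znf574+/+ or znf574+/-, so heterozygous larvae carrying a mutant allele may be in that group. All larvae descended from crosses of znf574+/- parents in the AB background, received no treatment, and were told apart by appearance 7 days after fertilization. Eggs and larvae were kept in an incubator for 8 days, and the labels state no separate age at RNA extraction. They also give neither the nature of the mutant allele nor the number of larvae per library, and do not say that replicates were separate clutches. The p-values therefore measure the spread between libraries, which may be technical.

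The protein ZNF574 carries zinc fingers, and the series title describes it as a quality control factor for defective intermediates of ribosome biogenesis. A gene commonly gives several transcripts through alternative start sites, splicing and ends, and these share most of their sequence. The program kallisto assigns each sequencing read to the set of transcripts it matches and divides reads that match several of them by a likelihood model. An estimated count of 0 therefore says that the model gave no reads to that transcript, while reads of the same gene may be counted under another one. Ensembl transcript identifiers end in a version number, which is raised when the model of the transcript is revised. No name table used here pairs these identifiers with genes, so no gene, function, chromosome or sequence is given for them, and the level of znf574 itself and markers of larval tissues were not analysed here.

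Each genotype was represented by 2 libraries. Summed over all transcripts, estimated counts came to 35764394 and 36320540 in wild type and to 42901442 and 31653921 in mutants. CPM below is counts per 1000000 of the library size after TMM scaling, and TPM is the deposited value per transcript length. A count of 0 allows a level of up to 3 counts, which is 0.0825 and 0.0901 CPM in the wild-type libraries. This limit covers counting error only and not the division of reads between transcripts. Whole larvae were used, so a difference in the number of cells of a type and one in RNA per cell cannot be told apart.

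Mutant-only transcripts made up a small part of the RNA. Together they held 89347 estimated counts in mutant replicate 1, or 0.208% of that library, and 51981 in mutant replicate 2, or 0.164%. Their estimated counts ranged from 33.0 to 13730 with a median of 258.5 in mutant replicate 1, and from 10.4 to 7374 with a median of 140.0 in mutant replicate 2. Of the 191, 121 had at least 100 counts in both mutant libraries, 63 fell under 100 in mutant replicate 2 and 7 fell under 100 in mutant replicate 1. In all, 22464 transcripts reached the same minimums in mutants at any wild-type level, and mutant-only transcripts were 0.850% of these. The median level of those 22464 transcripts was 6.40 and 5.92 TPM in the mutant libraries, against 4.28 and 3.17 TPM for mutant-only transcripts.

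A few transcripts carried much of the total. ENSDART00000183657.1, of 1950 bases, had 13730 estimated counts in mutant replicate 1, 7374 in mutant replicate 2 and 0 in both wild-type libraries. It alone held 15.4% and 14.2% of the counts of mutant-only transcripts in the mutant libraries, and the 8 most abundant held 33.8% and 29.6%. Its level per length was 217 TPM in mutant replicate 1 and 147 TPM in mutant replicate 2. ENSDART00000146994.4, of 5219 bases, had 4378 and 2015 counts in the mutant libraries and less than 1 count in each wild-type library. Because it is longer, this second most counted transcript stood at only 25.4 and 14.8 TPM.

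Among the next 6 by mean CPM, 2 were nearly equal in the mutant libraries. ENSDART00000188623.1, of 1512 bases, had 1981 and 1499 counts, or 44.5 and 46.1 CPM. ENSDART00000166449.2, of 2194 bases, had 1667 and 1213 counts, or 37.4 and 37.3 CPM, and its 0.201 counts in wild-type replicate 1 were the largest unrounded wild-type estimate of any mutant-only transcript. The other 4 differed between the mutant libraries. ENSDART00000179947.1, of 2446 bases, had 3510 counts in mutant replicate 1 and 175 in mutant replicate 2, a 14.7-fold difference in CPM between libraries of 1 genotype. ENSDART00000140782.3, of 3270 bases, was higher in mutant replicate 2, with 1155 and 1610 counts or 25.9 and 49.5 CPM. The remaining transcripts of this group, ENSDART00000189233.1 of 1851 bases and ENSDART00000187568.1 of 4295 bases, were both higher in mutant replicate 1. The former had 1988 and 813 counts and the latter 1783 and 669.

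Ordered by level per length, short transcripts came forward. After ENSDART00000183657.1, with a mean of 182 ± 49.0 TPM (SD, n = 2), came the shortest mutant-only transcript, ENSDART00000184847.1. It has 207 bases, and its 382 and 472 counts equalled 72.9 and 114 TPM. ENSDART00000191102.1, of 255 bases, followed at 65.9 and 57.4 TPM. The fourth, ENSDART00000142503.2 of 474 bases, stood at 98.1 TPM in mutant replicate 1 and 8.33 TPM in mutant replicate 2, so its mean of 53.2 ± 63.5 TPM (SD, n = 2) is smaller than its spread. These 4 were the transcripts with a mean of at least 50 TPM. A mean of at least 10 TPM was reached by 43 and of at least 1 TPM by 180. The longest, ENSDART00000191259.1 of 13632 bases, was at 0.515 and 0.108 TPM from 233 and 38.6 counts.

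**Figure D1:**
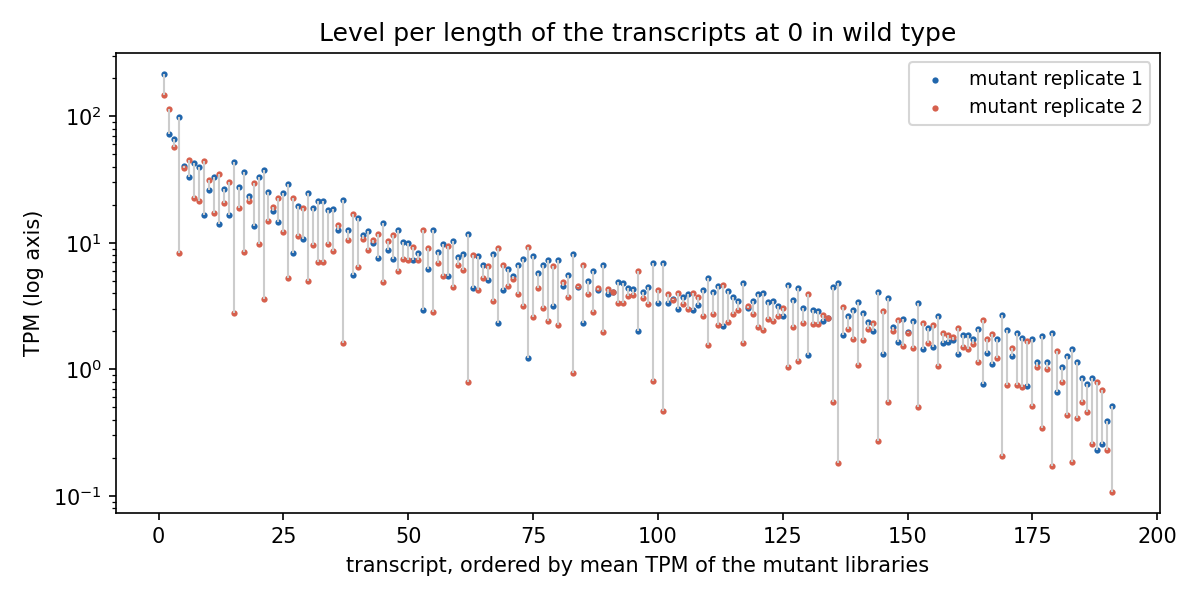
Level per length of the 191 mutant-only transcripts, with TPM on a log axis and transcripts ordered by the mean of the mutant libraries; each transcript has a blue point for mutant replicate 1, a red point for mutant replicate 2 and a grey line joining them. Only 4 transcripts have a mean of at least 50 TPM, and the long grey lines mark transcripts whose level differs several-fold between the mutant libraries.

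The zeros in wild type were exact for most of these transcripts. Before rounding, 148 had an estimate of exactly 0 in both wild-type libraries, while 43 had a fraction of a count in at least 1 of them and 21 in both. The 43 with a fraction were longer, with a median of 3045 bases against 1765 for the 148. Their median level in mutants was 7.52 CPM against 4.44 CPM. Their mutant libraries also differed more, with a median size of the log2 ratio of 1.003 against 0.59.

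Near the minimum the choice of members rests on few counts. Just inside it, ENSDART00000188828.1 had 179 and 21.5 counts in the mutant libraries and ENSDART00000143561.3 had 112 and 89.4. Just outside, with a rounded mean of 99.5, ENSDART00000150424.3 had 151 and 48.1 counts and ENSDART00000193689.1 had 157 and 41.6. Without a minimum on the mean, 714 transcripts were at 0 in wild type with at least 10 counts in each mutant library.

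The mean level of the mutant libraries was set against the limit of 3 counts per wild-type library, taken as the mean of both. If no reads were moved to other transcripts, it was at least 27.0-fold higher for each mutant-only transcript. This lowest bound, for ENSDART00000188828.1 with a rounded mean of 100 counts, follows from the minimum mean of 100 that chose the members. It is therefore not used as evidence. The median of the bounds was 57.5-fold and the highest was 3099-fold, for ENSDART00000183657.1. The condition on moved reads was not tested. For 187 mutant-only transcripts the estimate was not a whole number in either mutant library, so their counts contain at least some divided reads. The bounds of unequal transcripts rest on 1 library. From mutant replicate 2 alone the lowest bound was 3.56-fold, for ENSDART00000191497.1, and 34 transcripts fell under 27.0-fold. From mutant replicate 1 alone the lowest was 8.58-fold, and 8 fell under 27.0-fold. Large differences were found without a 0 in both wild-type libraries as well. Among the 22273 other transcripts at this mutant level, 359 had at least 8 times the mean wild-type CPM. For 93 it was at least 32 times and for 39 at least 100 times. Those at 0 in 1 wild-type library, 273 of the 22273, were not left out of these numbers.

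In the edgeR quasi-likelihood test across 39773 transcripts, 163 of the 191 mutant-only transcripts were called higher in mutants at a Benjamini-Hochberg adjusted p under 0.05. Of all transcripts tested, 9.5% were called higher in mutants. All 191 passed the filter on low counts, which their mutant counts alone ensured, and the counts that the test reads had chosen them, so no support is taken from the number called. Adjusted p in edgeR ranged from 0.0082 to 0.179. The 28 not called had more unequal mutant libraries: the median size of the log2 ratio between them was 2.88, against 0.57 for those called. Their median level was 3.44 CPM, against 5.25 CPM. As all 191 were at 0 in wild type, the spread within genotypes came from the mutant libraries. The contrast in log2 ratio therefore largely restates what the test reads. ENSDART00000179947.1, the fourth most abundant, was among the 28, at an edgeR adjusted p of 0.0946. With either wild-type library left out edgeR called 0 of them, and 0 of all transcripts, with 171 of the 191 at an unadjusted p under 0.05 in each case. DESeq2 on all libraries called 191 of the 191 and, of all 43141 transcripts tested, 5254 higher in mutants. The same counts had chosen the 191, so no support is taken from this number either.

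The mutant libraries agreed less on mutant-only transcripts than on other transcripts. The median size of the log2 ratio between mutant replicates was 0.72, a 1.65-fold difference, against 0.23 or 1.17-fold for all 22464 transcripts at this mutant level. Of the 191, 83 lay within 1.5-fold, or 43.5%, against 83.2% of the 22464. Differences beyond 4-fold were found for 26, or 13.6%, against 2.04%. Across the 191 transcripts, which share libraries and are not independent, the Pearson correlation of log2 CPM between the mutant libraries was 0.51 and Spearman's rho was 0.44, while Pearson's r was 0.93 over the 22464. Both sets passed the same minimums in mutants. The part of the range of levels in the difference between these correlations was not tested.

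Mutant-only transcripts agreed less in each class of level. At a mean of 100 to 200 counts the median fold between mutant replicates was 1.53 for 96 mutant-only transcripts and 1.25 for 5343 others. Between 200 and 500 counts it was 1.73 for 67 and 1.18 for 7159. Between 500 and 1000 counts it was 1.31 for 17 and 1.14 for 4434, and from 1000 counts upward 1.79 for 11 and 1.14 for 5337. The others were also restricted to transcripts with estimates that are not whole. Their median size of the log2 ratio was then 0.35 in place of 0.32 in the lowest class and 0.26 in place of 0.24 in the next. Most others were not whole already, 4429 of 5343 and 5770 of 7159, so this restriction could change little. The part of divided reads in the lower agreement was not tested.

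Mutant replicate 1 was more often the higher library. After TMM scaling 123 of the 191, or 64.4%, were higher in mutant replicate 1, against 53.3% of the 22464. The median log2 ratio of mutant replicate 2 to mutant replicate 1 was -0.27, against -0.03. Of the 26 that differed beyond 4-fold, 23 were higher in mutant replicate 1 and 3 in mutant replicate 2, whereas the 22464 held 183 and 275 of these. Mutant replicate 1 is also the deeper library, and the part of depth in this excess was not tested.

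The widest difference was that of ENSDART00000191497.1, of 2205 bases, with 346 counts in mutant replicate 1 and 10.4 in mutant replicate 2, or 25.3-fold in CPM. ENSDART00000125619.4, of 2124 bases, had 281 and 14.9 counts, or 13.7-fold. In the other direction ENSDART00000102766.5, of 849 bases, had 33.0 counts in mutant replicate 1 and 197 in mutant replicate 2, or 8.17-fold. ENSDART00000181916.1, of 540 bases, had 47.8 and 162 counts, or 4.62-fold, and ENSDART00000189912.1, of 1660 bases, had 124 and 390 counts, or 4.31-fold. All 5 missed the threshold of the edgeR test, at adjusted p of 0.179, 0.153, 0.128, 0.0821 and 0.0643 in that order. These 5 were picked for unequal mutant libraries, which the test reads as spread, so this is not a separate result.

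**Figure D2:**
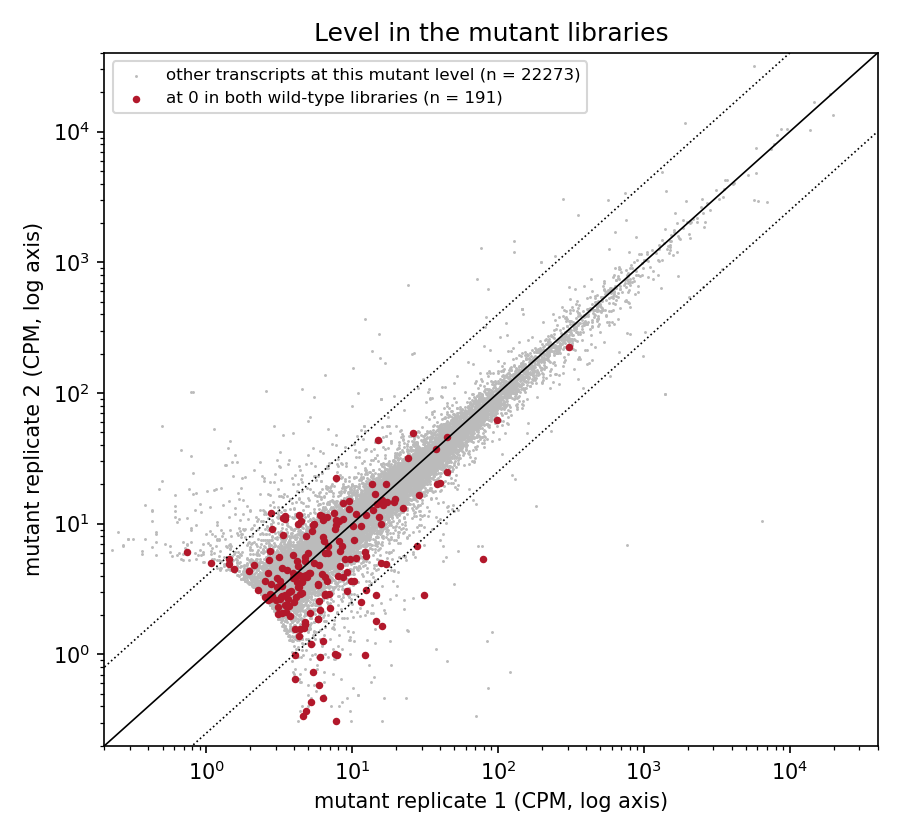
CPM in mutant replicate 1 (x) and mutant replicate 2 (y), both on log axes, for the 191 mutant-only transcripts in red and 22273 other transcripts with the same minimums in mutants in grey; the solid line marks equal levels and the dotted lines a 4-fold difference. Red points spread further from the solid line than grey points of the same level, with 23 below the lower dotted line and 3 above the upper one.

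An estimate of 0 also separated libraries of 1 genotype. Among the 22464 transcripts at this mutant level, 464 were at 0 in at least 1 wild-type library, and the 191 mutant-only transcripts were 41.2% of these. The other 273 were at 0 in 1 wild-type library and above 0 in the second, 133 at 0 in wild-type replicate 1 and 140 at 0 in wild-type replicate 2. In the library where they were found, these 273 had a median of 49.0 counts. There, 224 had at least 10 counts, 87 had at least 100, and the highest had 5020.

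An estimate of 0 separated the mutant libraries as well. Of the 22061 transcripts that reached the same minimums in wild type, 548 were at 0 in 1 mutant library and not in the other. With 0 in both wild-type libraries, 326 transcripts had at least 100 counts in mutant replicate 1. Of these, 93 were at 0 in mutant replicate 2, only 4 had 1 to 9 counts there, and 229 had at least 10. In the reverse case 155 transcripts had at least 100 counts in mutant replicate 2, of which 18 were at 0 in mutant replicate 1, 1 had 1 to 9 counts and 136 had at least 10. So 93 transcripts with at least 100 counts in mutant replicate 1 were at 0 in each of the other 3 libraries. For comparison, of 256 transcripts at 0 in both mutant libraries with at least 100 counts in wild-type replicate 1, 28 were at 0 in wild-type replicate 2, and of 221 with at least 100 in wild-type replicate 2, 24 were at 0 in wild-type replicate 1.

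The reverse class holds transcripts at 0 in both mutant libraries with the same minimums in wild type. It had 208 members, 0.943% of the 22061 transcripts that reached those minimums, and took 0.195% and 0.180% of the counts of the wild-type libraries. The share at 0 was thus close to the 0.850% found in mutants. The wild-type libraries differed by a median of 1.35-fold on their 208 transcripts, against 1.15-fold for all 22061. Of the 208, 60.1% lay within 1.5-fold and 8.17% beyond 4-fold, with 99, or 47.6%, higher in wild-type replicate 1. Both libraries of the pair thus took a similar part of the higher values, unlike in mutants. The difference between genotypes was not tested.

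**Figure D3:**
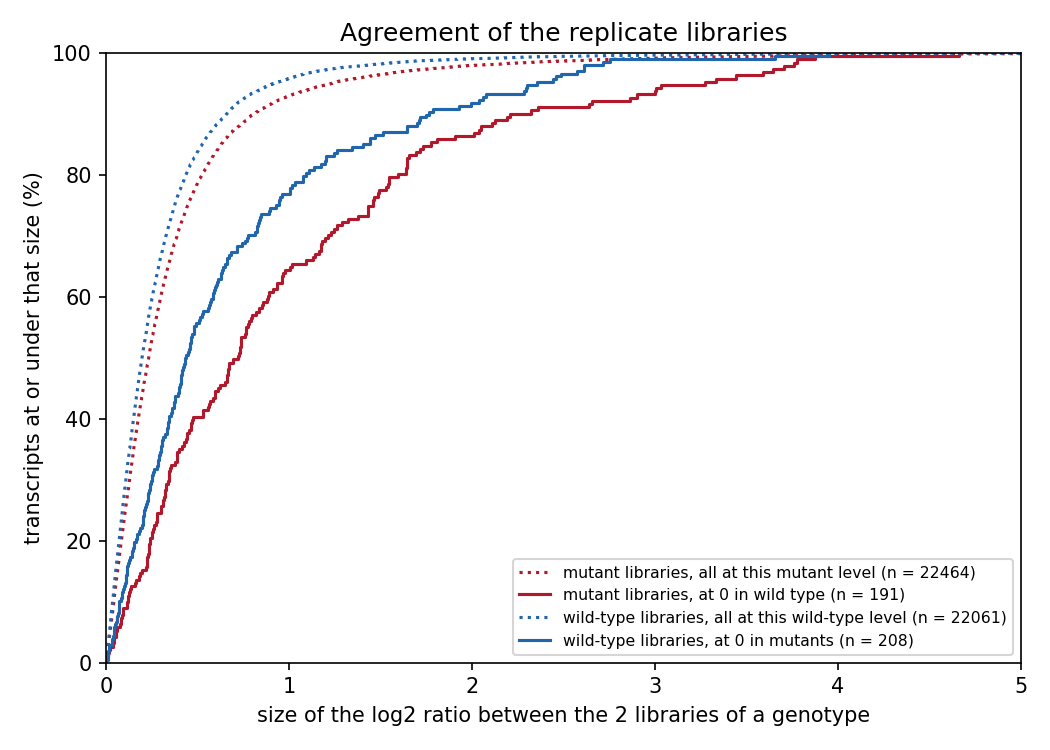
Cumulative share of transcripts (y, %) at or under a given size of the log2 ratio between the 2 libraries of a genotype (x, shown up to 5), for mutants in red and wild type in blue; solid lines show transcripts at 0 in the other genotype and dotted lines all transcripts that reached the same minimums. The solid red curve for 191 transcripts lies furthest to the right, with a median of 0.72, and both dotted curves lie to the left of both solid ones.

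Whole estimates were nearly absent among mutant-only transcripts. An estimate within 0.005 of a whole number in both mutant libraries, read only under 10000 counts, was found for 1 of them, ENSDART00000165681.2 of 3336 bases. It had exactly 126 and 91 counts in the mutant libraries, 2.83 and 2.80 CPM, and exactly 0 in both wild-type libraries, with an edgeR adjusted p of 0.0202. Of the 22464 transcripts, 21939 were under 10000 counts and could be read in this way. Whole estimates in both mutant libraries were found for 4112 of these, or 18.7%, so that 0.0243% of transcripts with whole estimates were mutant-only, against 189 of 17827 others, or 1.06%. No whole estimate in either mutant library was found for 187 of the 191. A whole estimate can arise without reads shared with other transcripts, while one that is not whole contains at least some divided reads.

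A pair of mutant-only transcripts had equal values in every library. ENSDART00000185416.1 and ENSDART00000187566.1 both have 348 bases and the same estimates, 211 counts in mutant replicate 1, 55.7 in mutant replicate 2 and 0 in wild type. They are counted as 2 of the 191 and are not separate measurements. Of the 22464 transcripts, 148, or 0.659%, had such a partner with equal length and equal estimates in every library.

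Version 1 identifiers were frequent. They made up 95 of the 191, or 49.7%, against 3049 of the 22464, or 13.6%. Put the other way, 3.12% of version 1 transcripts at this mutant level were mutant-only, 0.694% of those of version 2, 0.569% of version 3 and 0.341% of version 4 or later. Among transcripts with estimates that are not whole, version 1 had a higher share than all later versions together in each of 3 classes of level. From 100 to 200 counts the shares were 4.85% for version 1 and 1.27% for later versions. From 200 to 500 counts they were 3.09% and 0.729%, and from 500 counts upward 1.38% and 0.240%. In the reverse class version 1 took a similar place, with 2.83% of version 1 transcripts, 1.02% of version 2, 0.850% of version 3 and 0.311% of version 4 or later.

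Lengths divisible by 3 were frequent as well. A transcript model that contains a coding sequence and no untranslated ends has such a length, since a codon has 3 bases, but other models can have it too. The length was divisible by 3 for 131 of the 191, or 68.6%, against 40.5% of the 22464. Among the 95 version 1 transcripts it was 78, or 82.1%, and among the 96 later ones 53, or 55.2%. Of 1855 version 1 transcripts with such a length 78 were mutant-only. The share was lower elsewhere: of other version 1 transcripts 1.42%, of later versions with such a length 0.732% and of the remaining ones 0.353%. In the reverse class 55.3% of lengths were divisible by 3, against 40.9% of the 22061.

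The version 1 transcripts and the later ones differed little in level but more in agreement. Their median level was 3.90 and 4.04 TPM. The median length was 1704 bases for version 1 and 2125 for later versions. The median size of the log2 ratio between the mutant libraries was 0.47 for version 1 and 0.85 for later versions.

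Mutant-only transcripts were shorter and less abundant than others at this mutant level. Their median length was 1908 bases, with quartiles of 1029 and 3072, against 2297 bases with quartiles of 1446 and 3778. Up to 1000 bases 1.57% of transcripts were mutant-only, over 1000 and up to 2000 bases 0.785%, over 2000 and up to 4000 bases 0.799%, and above 4000 bases 0.590%. The share fell with level, from 1.77% at a mean of 100 to 200 counts to 0.927% at 200 to 500, 0.382% at 500 to 1000, 0.314% at 1000 to 2000 and 0.0807% above, where 2 of 2479 were mutant-only. A low count reaches 0 more readily, and its part in this order was not tested. The reverse class was shorter still, with a median of 1434 bases, against 2233 for all transcripts that reached its minimums. Its share fell in a similar way, from 1.82% up to 1000 bases to 0.43% above 4000 bases. By level it went from 1.86% at 100 to 200 counts to 0.145% at 1000 to 2000 and 0.171% above.

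**Figure D4:**
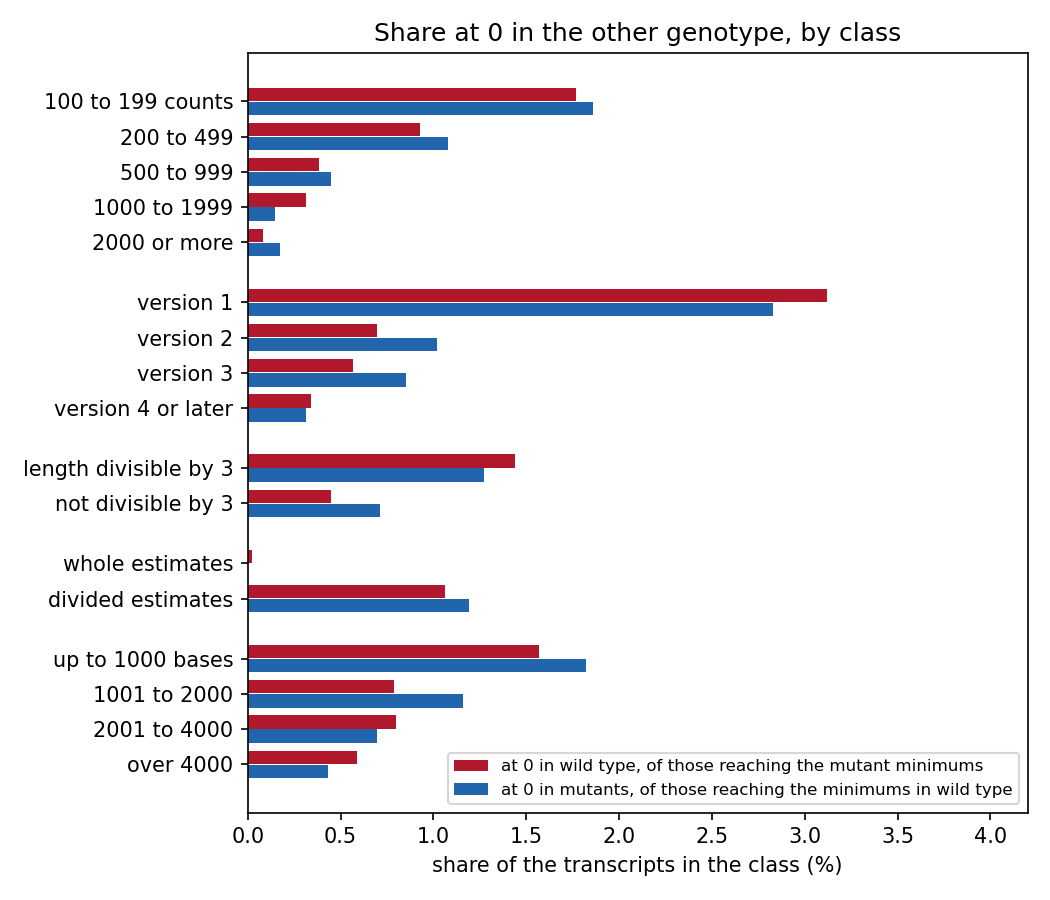
Share (%) of transcripts that are at 0 in the other genotype, by mean count in the genotype where they are found, identifier version, divisibility of the length by 3, whole or divided estimates, and length; red bars give mutant-only transcripts of those reaching the minimums in mutants, blue bars the reverse class of those reaching them in wild type. Version 1 has the longest bars, 3.12% and 2.83%, and transcripts with whole estimates have 0.0243% in mutants and none of 4141 in wild type.

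Equal length with a transcript of the reverse class was about as frequent as in the background. Of the 191, 11 had a transcript of exactly the same length in the reverse class, or 5.76%, against 4.84% of the 22464. Within 3 bases the shares were 29.8% and 25.1%. An example is ENSDART00000125540.4, of 1221 bases, with 181 and 32.1 counts in the mutant libraries, which shares its length with ENSDART00000188371.1, at 4359 and 4679 counts in the wild-type libraries. This pair was picked after its values were seen, and whether its sequences are related was not tested.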

How the data were processed

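Transcripts were quantified with kallisto 0.46.0 after base calling with bcl2fastq 2.20, per the submitters' processing notes, where the builds GRCz11 and danRer11 and a DESeq2 version, 2.11.40, are listed too. Libraries were made with a stranded kit for mRNA, per the labels' protocols. For the annotation release and the kallisto options: not given in the sources used here. Deposited estimated counts carry no normalization. Deposited TPM values are scaled per effective length to 1000000 per library. Every effective length of the members was the length minus 50 bases. The name table holds 29201 gene identifiers, and 0 transcript identifiers matched.

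Estimated counts were rounded. All 4 libraries were fitted in edgeR 4.0.16 (R 4.3.3) with filterByExpr (minimum count 10, minimum total 15), TMM, a robust quasi-likelihood fit that was not the legacy one, and genotype as the only term. The fit was also run on simulated counts with planted changes. That simulation held no divided reads, so no support for the calls of these members is taken from it. Calls are Benjamini-Hochberg adjusted over all transcripts tested. Alternatives were DESeq2 1.42.0, limma 3.58.1 on log2-transformed TPM with 1 or 0.1 added, other scalings, no filter, replicate blocks, other minimums and each library left out. Transcripts named are the 8 highest by mean CPM, the 3 most unequal in each direction between mutant libraries, whole ones, the longest and shortest, and 2 on either side of the minimum mean. Those named besides, by TPM, as equal-valued or for equal length, were picked after their values were seen. Members, classes and rules were chosen with earlier results of these data known.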

Additional observations from a re-analysis of the deposited data

How the results depend on the processing

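The number of mutant-only transcripts, 191, follows its limits: 342 when the minimum mean is 50 counts and 95 when it is 200. With 1 library left out of the rule it was 155 to 331. It was 331 without wild-type replicate 1, 324 without wild-type replicate 2, 155 without mutant replicate 1 and 326 without mutant replicate 2. Exact zeros, fewer than 3 counts in wild type and a minimum in CPM kept it within 1.5 times, at 148, 210 and 236. The number called higher by edgeR, 163, was 0 with the replicate number as a block, where 191 had an unadjusted p under 0.05, and 0 to 184 with 1 library left out. The genotype with 1 library was then assumed to vary like the other. No conclusion about mutant-only transcripts is therefore drawn from the numbers called with 1 library left out. The replicate block called 0 of all 39773 transcripts, so its 0 is not particular to mutant-only transcripts. Same-numbered libraries deviated with a correlation of -0.122, so pairing by number was not assumed. A crossed block, added after seeing the data, called 191, and 2779 of all 39773 transcripts higher. Under the other tests, scalings and filters 146 to 191 were called, beside 3220 to 5254 of all transcripts tested. The legacy fit, also added later, gave 165, beside 3220 of 39773. The causes were not tested. The median log2 ratio of mutant replicate 2 to 1, -0.274, was -0.317 with RLE, -0.29 with library size and -0.388 in TPM. At a tolerance of 0.05 counts 5 transcripts had whole estimates in place of 1. With means of at least 50 and 200 counts, also added later, version 1 made up 48.2% and 46.3%, and lengths divisible by 3 made up 66.1% and 68.4%. Levels under 3 counts stay unresolved at this depth.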
